A study of Mus musculus with 7 samples.

Results

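The stratified and stress keratins are 10 genes whose products form intermediate filaments in stratified, ductal and wounded epithelia: Krt5, Krt14, Krt15, Krt13, Krt6a, Krt6b, Krt16, Krt17, Krt23 and Krt80. They were taken by symbol from the 24353 rows of the table, where they are 10 of 51 keratin rows. The table writes them in capitals (KRT5, KRT14, KRT15, KRT13, KRT6A, KRT6B, KRT16, KRT17, KRT23 and KRT80). They were selected on their FPKM in these libraries, so their levels and fold changes are a description and carry no test.

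RNA sequencing covered endometrial epithelial cells in 7 libraries, all from oophorectomized C57BL/6 females. Of these, 2 came from mice given tamoxifen (0.5 mg per day, subcutaneously) with alpelisib (30 mg/kg per day, orally), 2 from mice given tamoxifen alone, 2 from mice with an estradiol pellet (0.01 mg, released over 60 days) and 1 from vehicle. Surgery took place at 6 to 7 weeks of age and treatment lasted 28 days in every arm. Tamoxifen blocks the estrogen receptor in the breast but partly activates it in the uterus. Alpelisib is an inhibitor of the PI3K catalytic subunit p110alpha. The title of the series asks whether tamoxifen activates PI3K signaling in the uterus. The replicates are labelled as mouse 1 and mouse 2, and 6 mice were randomized to each arm with tamoxifen or vehicle. Whether the vehicle library holds 1 mouse or a pool, and how epithelium was separated from the uterine horn, is left unstated in the sources used here. The vehicle library is labelled ED in its title and description, and was read as the vehicle arm. With 1 library, vehicle values have no SD.

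Keratins are obligate heteropolymers: an acidic type I keratin pairs with a basic type II keratin. Krt5 (type II) with Krt14 or Krt15 (type I) builds the filaments of basal cells in stratified epithelia, and Krt13 (type I), paired with Krt4, those of the suprabasal layers of internal stratified epithelia. Krt6a and Krt6b (type II) with Krt16 and Krt17 (type I) are switched on in skin after wounding. The columnar lining of the uterus is built mainly on the simple keratins Krt7, Krt8, Krt18 and Krt19. Among the genes described here 6 are type I (Krt14, Krt15, Krt13, Krt16, Krt17 and Krt23) and 4 are type II (Krt5, Krt6a, Krt6b and Krt80).

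The 250 bases upstream of the start site are shown for Krt23, Krt13 and Krt5. Only for these members was a promoter available whose start site is the outer end of the gene. The 3 genes had different patterns over the groups. The sequences come from RefSeq (GRCm38.p6), and all 3 genes lie on the minus strand: Krt23 at chr11:99493121-99493370, Krt13 at chr11:100121567-100121816 and Krt5 at chr15:101712906-101713155. Sequences run 5′ to 3′ towards the start site, and capitals mark matches to ATAAAA and to TGANTCA. The latter is a relaxed form of the AP-1 motif with any base at its centre. The match in Krt13 has A there, so it is a match to the relaxed form only.
Krt23: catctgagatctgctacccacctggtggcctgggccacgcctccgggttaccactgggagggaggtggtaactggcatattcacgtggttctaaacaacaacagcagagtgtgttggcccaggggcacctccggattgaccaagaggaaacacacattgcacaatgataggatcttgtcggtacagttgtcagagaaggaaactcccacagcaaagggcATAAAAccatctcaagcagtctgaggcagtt
Krt13: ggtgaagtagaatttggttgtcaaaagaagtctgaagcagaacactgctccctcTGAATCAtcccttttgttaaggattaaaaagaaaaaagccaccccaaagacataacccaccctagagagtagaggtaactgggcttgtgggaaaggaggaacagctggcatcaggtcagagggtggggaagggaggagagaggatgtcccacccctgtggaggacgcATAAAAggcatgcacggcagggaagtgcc
Krt5: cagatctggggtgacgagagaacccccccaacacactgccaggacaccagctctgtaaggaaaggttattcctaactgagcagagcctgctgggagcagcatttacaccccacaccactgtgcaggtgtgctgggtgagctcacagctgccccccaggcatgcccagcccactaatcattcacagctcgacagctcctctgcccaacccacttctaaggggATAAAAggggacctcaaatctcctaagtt
ATAAAA, chosen after the sequences had been read, lies at positions -31 to -26 in Krt23 and at -29 to -24 in both Krt13 and Krt5, counted from the start site, and 17.0% of 32851 promoter windows hold it on either strand. TGANTCA lies at -196 to -190 in Krt13 only, among these 3 windows, and is present in 6.75% of all windows. TATAAA (12.4% of windows) and the forkhead motif GTAAACA (3.17%) had no match, searched on both strands. The motif of the estrogen response element, present in 0.0639% of windows, was also searched and had no match in these 3 windows. Nearly all windows lack it. A match describes the letters and is not evidence of binding. In the same annotation Krt14, Krt16 and Krt17 are consecutive genes on chromosome 11, as are Krt13, Krt15 and the simple keratin Krt19. Krt6b, Krt6a and Krt5 are consecutive on chromosome 15, where Krt80 neighbours the simple keratin Krt7.

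Values are FPKM, fragments per kilobase of transcript scaled to library depth. The lowest cluster of values of single-transcript genes, taken as 1 fragment, puts the depth near 16.2 to 19.5 M fragments in 6 libraries, and estradiol 2 shows no clear cluster, so its depth was not read. Estradiol 2 stood apart in other ways too: its ribosomal RNA precursor Rn45s was at 2276 FPKM, against 189 to 764 in the other 6 libraries, and its summed FPKM was 264322, against 320527 to 403562. The epithelial marker Epcam was at 268 and 288 FPKM with tamoxifen plus alpelisib, 226 and 289 with tamoxifen, 234 and 202 with estradiol and 206 with vehicle. Of 10 leukocyte markers, Ptprc and Cd3e stayed under 1 FPKM in every library and the other 8 reached it, with differing orders of groups. The myeloid integrin Itgam was at 31.7 and 33.0 with tamoxifen plus alpelisib and 51.5 and 56.0 with tamoxifen. With estradiol it was at 10.1 and 8.80, and with vehicle at 0.406. Cd74 was instead highest with estradiol, at 209 and 126, against 9.32 and 11.4 with tamoxifen and 18.7 with vehicle. Csf1r was also highest with estradiol, and S100a8 and S100a9 with tamoxifen plus alpelisib. Fold changes are on the log2(FPKM + 1) scale, which understates changes of low genes, and come from 1 limma fit over the 12314 genes that reached 1 FPKM in at least 1 library. A gene counts as called where its Benjamini-Hochberg adjusted p over these genes is under 0.05. In bulk RNA, more cells that express a keratin and more of its RNA per cell cannot be told apart.

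Krt5, the basal type II keratin, was the most abundant of the 10 in every library but vehicle. It was at 299.6 and 308 FPKM with tamoxifen plus alpelisib, 321 and 271 with tamoxifen, 73.4 and 77.2 with estradiol and 16.8 with vehicle. The libraries with tamoxifen, with or without alpelisib, overlapped each other and lay above both estradiol libraries, which lay above vehicle. The log2 fold change was 0.04 ± 0.17 (SE) for tamoxifen plus alpelisib against tamoxifen, 4.06 ± 0.20 for tamoxifen against vehicle and 2.10 ± 0.20 for estradiol against vehicle.

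Krt15, a basal type I keratin, was at 146 and 144 FPKM with tamoxifen plus alpelisib, 165 and 158 with tamoxifen, 35.0 and 31.4 with estradiol and 22.7 with vehicle. Its levels ran like those of Krt5: high in all 4 libraries with tamoxifen, low with estradiol and lowest with vehicle. The log2 difference of tamoxifen plus alpelisib from tamoxifen was -0.16 ± 0.14, and that of tamoxifen from vehicle 2.78 ± 0.18. Estradiol differed from vehicle by 0.52 ± 0.18 on the log2 scale, a gap that was not called.

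Krt14, the usual partner of Krt5, departed from both. It was at 215 and 216 FPKM with tamoxifen plus alpelisib, 32.5 and 37.5 with tamoxifen, 61.4 and 60.9 with estradiol and 10.6 with vehicle. The groups did not overlap, and the order of Krt14 placed tamoxifen alone under estradiol, whereas Krt5 and Krt15 were higher with tamoxifen alone than with estradiol. Tamoxifen plus alpelisib lay 2.59 ± 0.14 above tamoxifen on the log2 scale, or 6.17-fold in mean FPKM, while tamoxifen lay 0.79 ± 0.14 below estradiol.

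The balance of the basal keratins differed by group. The ratio of Krt5 to Krt14 in FPKM was 1.39 and 1.42 with tamoxifen plus alpelisib, 9.89 and 7.24 with tamoxifen, 1.20 and 1.27 with estradiol and 1.58 with vehicle, so that tamoxifen alone stood apart from the other 3 groups. Krt14 relative to Krt15 was also lowest with tamoxifen alone, with vehicle next, at 1.47 and 1.51 with tamoxifen plus alpelisib, 0.196 and 0.237 with tamoxifen, 1.76 and 1.94 with estradiol and 0.468 with vehicle. Krt5 relative to Krt15 stayed between 1.71 and 2.46 in the 6 treated libraries, against 0.739 in vehicle.

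Krt13 had one of the most regular patterns. It was at 169 and 167 FPKM with tamoxifen plus alpelisib, 79.7 and 79.0 with tamoxifen, 27.4 and 24.8 with estradiol and 8.82 with vehicle. No 2 groups overlapped. Group means were 168 ± 1.49 with tamoxifen plus alpelisib, 79.4 ± 0.501 with tamoxifen and 26.1 ± 1.87 with estradiol (SD, n = 2 each). The step between tamoxifen plus alpelisib and tamoxifen was 1.07 ± 0.14 on the log2 scale, and that between tamoxifen and vehicle 3.03 ± 0.17. Krt4, its type II partner and no part of the group, was at 2.96 and 4.26 FPKM with tamoxifen plus alpelisib, 2.61 and 2.63 with tamoxifen, 0.389 and 0.219 with estradiol and 7.29 with vehicle, so that vehicle, lowest for Krt13, was highest for Krt4.

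**Figure D1:**
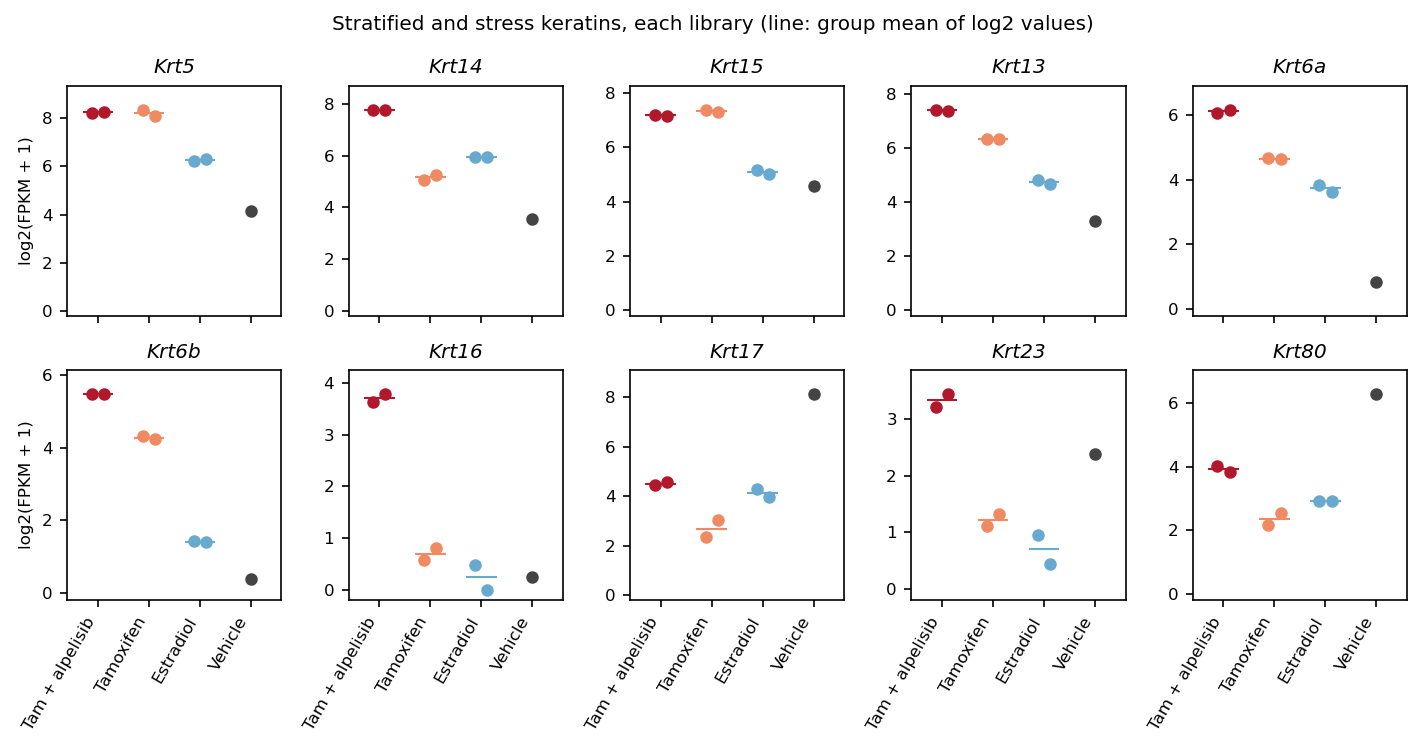
Level of each of the 10 keratins in each library, as log2(FPKM + 1), with one panel per gene and its own axis; points are libraries (2 each with tamoxifen plus alpelisib, tamoxifen and estradiol, 1 with vehicle) and lines are group means of the log2 values. Krt5 and Krt15 sit level in the libraries with tamoxifen, Krt13, Krt6a and Krt6b step down from left to right, and Krt17 and Krt80 are highest in vehicle.

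The wound keratins Krt6a and Krt6b followed the same order of groups as Krt13. Krt6a was at 65.2 and 69.7 FPKM with tamoxifen plus alpelisib, 24.4 and 23.6 with tamoxifen, 13.2 and 11.3 with estradiol and 0.793 with vehicle. Krt6b was at 43.5 and 43.4 FPKM with tamoxifen plus alpelisib, 19.0 and 17.8 with tamoxifen, 1.67 and 1.65 with estradiol and 0.297 with vehicle. For both genes no 2 groups overlapped. Against tamoxifen, tamoxifen plus alpelisib was 1.45 ± 0.13 higher for Krt6a and 1.20 ± 0.12 higher for Krt6b on the log2 scale.

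The 2 paralogs differed in the estradiol libraries. Krt6a exceeded Krt6b 1.497-fold and 1.61-fold with tamoxifen plus alpelisib, 1.29-fold and 1.33-fold with tamoxifen, 7.89-fold and 6.88-fold with estradiol and 2.67-fold with vehicle. They are near copies: 43.6% of the 50-base stretches of the Krt6a transcript (GENCODE M21) are also in that of Krt6b, and how the authors' counting shared such reads is unstated in the sources used here, so the split between them is uncertain. Of the other members, Krt16 shares 37.6% of its stretches, mostly with the gene model Gm11597, and Krt14 shares 14.4%, mostly with Krt16, while Krt5 shares 8.52%, Krt17 3.99%, Krt15 0.666% and Krt13, Krt23 and Krt80 none.

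Krt16, a type I stress keratin of skin, was above 1 FPKM only in the libraries with tamoxifen plus alpelisib. It was at 11.4 and 12.9 FPKM with tamoxifen plus alpelisib, 0.493 and 0.757 with tamoxifen, 0.397 and 0 with estradiol and 0.179 with vehicle. At the depth read above, the low values stand for about 13.7 and 19.2 fragments with tamoxifen, 10.6 in estradiol 1 and 5.45 with vehicle, so their order is not resolved. Tamoxifen plus alpelisib was 3.02 ± 0.20 above tamoxifen on the log2 scale. The mean FPKM was 19.4-fold higher. Krt14, which shares stretches with Krt16, was at 215 and 216 FPKM in the same libraries, and the part of its reads in the Krt16 value was not tested.

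Krt17, the other type I stress keratin, was likewise higher with tamoxifen plus alpelisib than with tamoxifen, but was highest in vehicle, where Krt16 was near 0. It was at 20.8 and 22.6 FPKM with tamoxifen plus alpelisib, 4.06 and 7.13 with tamoxifen, 18.6 and 14.4 with estradiol and 277 with vehicle. Vehicle was far above every treated library, and tamoxifen alone was lowest. The log2 fold change was 1.82 ± 0.25 for tamoxifen plus alpelisib against tamoxifen, -5.44 ± 0.30 for tamoxifen against vehicle and -4.00 ± 0.30 for estradiol against vehicle. In the vehicle library Krt17 made up 66.1% of the summed FPKM of the 10 genes, compared with 0.624% to 7.78% in the 6 treated libraries.

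Krt80, a type II keratin found in many epithelia, was ordered much like Krt17. It was at 15.4 and 13.4 FPKM with tamoxifen plus alpelisib, 3.48 and 4.78 with tamoxifen, 6.65 and 6.52 with estradiol and 77.6 with vehicle, with no overlap between groups. The log2 fold change was 1.59 ± 0.16 for tamoxifen plus alpelisib against tamoxifen and -3.95 ± 0.20 for tamoxifen against vehicle. Krt23, a type I keratin, shared the higher level in vehicle but not its rank: it was at 8.28 and 9.96 FPKM with tamoxifen plus alpelisib, 1.16 and 1.503 with tamoxifen, 0.932 and 0.362 with estradiol and 4.20 with vehicle. Tamoxifen plus alpelisib thus lay above vehicle for Krt23, by 0.96 ± 0.25 on the log2 scale, and below it for Krt17 and Krt80, by -3.62 ± 0.30 and -2.36 ± 0.20.

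The high vehicle values of Krt17, Krt80 and Krt23 rest on 1 library, which also had the highest levels of markers of several other cell types. Summed over each list, stromal markers were at 121 and 129 FPKM with tamoxifen plus alpelisib, 56.3 and 55.8 with tamoxifen, 191 and 181 with estradiol and 269.5 with vehicle, and 11 of 12 reached 1 FPKM, without Pdgfrb. Smooth muscle markers (7 of 8 reaching 1 FPKM, without Lmod1) summed to 24.0 and 25.7 with tamoxifen plus alpelisib, 27.5 and 26.5 with tamoxifen, 15.7 and 13.0 with estradiol and 78.6 with vehicle. Endothelial markers (8 of 9, without Tek) summed to 2.48 and 2.66, 4.10 and 3.87, 15.6 and 11.98, and 21.8 in the same order of groups. The part of these cells in the keratin values was not tested. Mesothelial markers, with all 6 reaching 1 FPKM, summed to 37.2 and 35.7 with tamoxifen plus alpelisib, 12.5 and 15.3 with tamoxifen, 41.7 and 36.7 with estradiol and 31.4 with vehicle.

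Stratified epithelium of the vagina or cervix, which lies next to the uterine horns, also makes several of these keratins. Of 12 further genes of that epithelium 9 reached 1 FPKM, and Krt78, Krt76 and Dsg1a stayed under 1 FPKM in every library. The list summed to 21.2 and 24.6 FPKM with tamoxifen plus alpelisib, 8.96 and 13.1 with tamoxifen, 7.98 and 5.30 with estradiol and 32.6 with vehicle. Loricrin (Lor) alone gave 18.7 FPKM of the vehicle sum and at most 1.52 in any other library. The basal master regulator Trp63 was at 2.65 and 2.99 FPKM with tamoxifen plus alpelisib, 1.38 and 1.66 with tamoxifen, 1.40 and 1.35 with estradiol and 0.969 with vehicle. The part of such tissue in the keratin values was not tested. Erythroid markers (4 of 4 reaching 1 FPKM) summed to 237 and 261, 1238 and 938, 73.6 and 109, and 30.4 FPKM in that order of groups, and leukocyte markers (8 of 10) to 107 and 113, 83.3 and 101, 251 and 157, and 30.9.

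The members' calls were counted in each comparison as a description. For tamoxifen against vehicle 6 of the 10 were called higher (Krt5, Krt14, Krt15, Krt13, Krt6a and Krt6b) and 3 lower (Krt17, Krt80 and Krt23), where 39.0% of all 12314 genes were called, 14.9% higher and 24.1% lower. Krt16 was not called, at 0.46 ± 0.24. The members' median log2 fold change was 2.20, beside -0.12 over all genes. The libraries of both groups did not overlap for any of the 10, as for 87.1% of all genes. Without tamoxifen 1, Krt23 was no longer called.

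For tamoxifen plus alpelisib against tamoxifen 8 were called higher, 0 lower, and 2 not (Krt5 and Krt15). Over all genes 11.7% were called, 6.93% higher and 4.81% lower, and the median log2 fold change was 1.52 for the members and -0.03 for all genes. The libraries of both groups did not overlap for 9 of the 10, Krt5 being the exception, and for 64.5% of all genes. Without tamoxifen plus alpelisib 1 only Krt14 and Krt16 were called, and without tamoxifen plus alpelisib 2 only Krt14, though the members' fold changes moved by at most 0.12. In those fits the genes called over the whole table numbered 18 and 14, against 1445.

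For estradiol against vehicle 5 were called higher (Krt5, Krt14, Krt13, Krt6a and Krt6b) and 3 lower (Krt17, Krt80 and Krt23), with Krt15 and Krt16 not called. Over all genes 35.5% were called, 22.7% higher and 12.8% lower, and the medians were 0.78 for the members and 0.12 for all genes. The groups' libraries did not overlap for 9 of the 10, Krt16 being the exception, and for 83.2% of all genes. Krt6b, at 1.03 ± 0.14, was not called with only the 2 compared groups in the fit, and Krt15 was called without estradiol 2. The comparison shares its vehicle library with that of tamoxifen, so both sets of values hang on it. Side by side, Krt14 was the only one of the 6 keratins above vehicle with tamoxifen whose log2 fold change was larger with estradiol (2.42 ± 0.17) than with tamoxifen (1.62 ± 0.17).

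**Figure D2:**
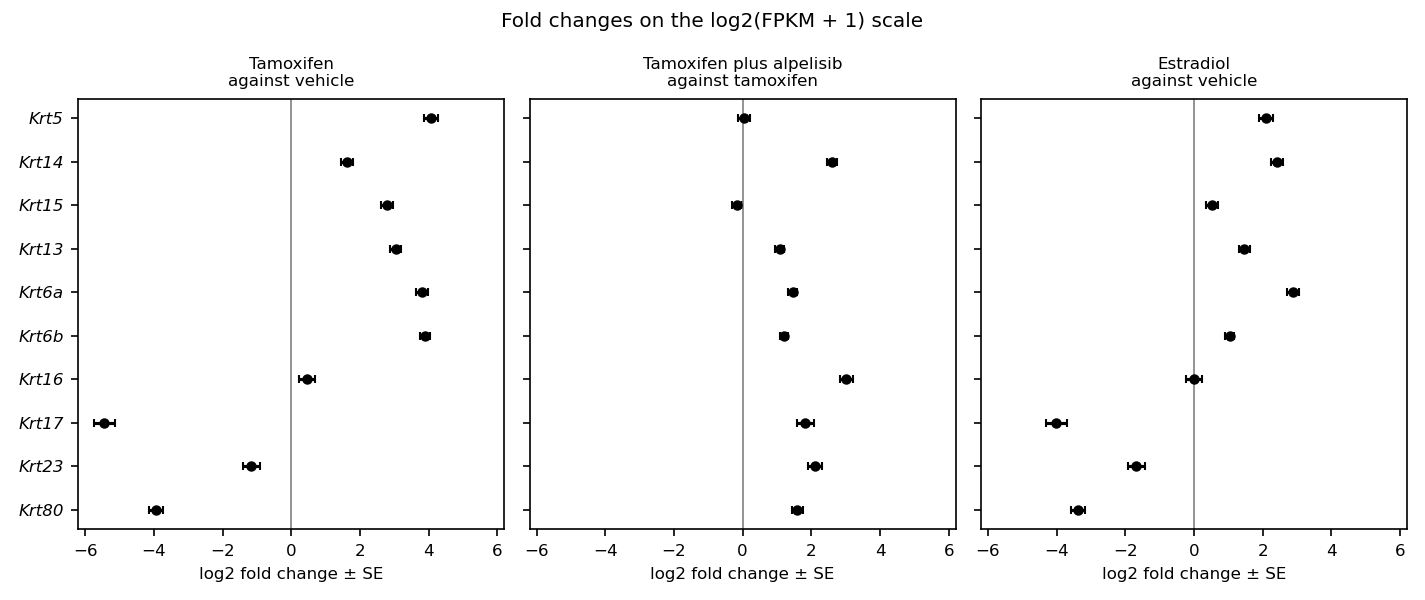
Log2 fold change of each keratin on the log2(FPKM + 1) scale, with the SE of the limma fit as horizontal bars, for tamoxifen against vehicle, tamoxifen plus alpelisib against tamoxifen and estradiol against vehicle. Krt5 and Krt15 lie near 0 in the middle panel, where the other 8 lie above it, and Krt17, Krt23 and Krt80 lie below 0 in both comparisons with vehicle.

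The direct comparison of tamoxifen with estradiol does not use vehicle. In it 5 were called higher (Krt5, Krt15, Krt13, Krt6a and Krt6b) and 3 lower (Krt14, Krt17 and Krt80), where 48.5% of all genes were called, 12.3% higher and 36.2% lower. All 10 had libraries that did not overlap between the groups, as did 71.8% of all genes. The largest log2 fold changes among the 10 were those of Krt6b (2.87 ± 0.12) and Krt15 (2.25 ± 0.14), while Krt17 lay at -1.44 ± 0.25. Krt80, at -0.58 ± 0.16, was lost under most alternatives. With median-of-ratios scaling Krt16 and Krt23, at 0.45 ± 0.20 and 0.52 ± 0.21 here, were also called higher.

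Tamoxifen plus alpelisib had the highest levels of Krt14, Krt13, Krt6a, Krt6b, Krt16 and Krt23, genes chosen with these values known. The share of all genes with that order was not counted. Against estradiol 9 of the 10 were called higher and 0 lower, beside 15.7% and 37.5% of all genes (53.2% in either direction). The widest gaps were in Krt6b (4.06 ± 0.12) and Krt16 (3.47 ± 0.20). The exception was Krt17, at 0.38 ± 0.25, which was called with median-of-ratios scaling. Against vehicle 8 were called higher and 2 lower (Krt17 and Krt80), beside 13.1% and 21.8% of all genes (34.9% in either direction), and Krt6a (5.25 ± 0.16) and Krt6b (5.10 ± 0.14) had the widest gaps. Krt23, at 0.96 ± 0.25 in that fit, was not called under 5 alternatives. The libraries did not overlap for any of the 10 in either comparison, as for 79.5% of all genes against estradiol and 91.9% against vehicle.

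Scaling by median-of-ratios size factors, which moved the all-gene median of log2 fold changes to 0.02 for tamoxifen against vehicle (-0.12 without it) and to 0.01 for tamoxifen against estradiol (-0.26 without it), changed no direction of a called member. It did change the split of calls over all genes: 2497 higher and 2525 lower for tamoxifen against vehicle (1838 and 2969 without it), 2109 and 2250 for estradiol against vehicle (2793 and 1573), 2950 and 2684 for tamoxifen against estradiol (1519 and 4458), 2226 and 2122 for tamoxifen plus alpelisib against vehicle (1619 and 2680), and 3360 and 3027 for tamoxifen plus alpelisib against estradiol (1935 and 4613).

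Summed over the 10 genes, keratin RNA of this group was at 995 and 1007 FPKM with tamoxifen plus alpelisib, 651 and 601 with tamoxifen, 239 and 229 with estradiol and 419 with vehicle. It made up 18.5% and 17.7% of the FPKM of all 51 keratins with tamoxifen plus alpelisib, 14.7% and 11.1% with tamoxifen, 9.71% and 10.02% with estradiol and 7.92% with vehicle. The simple keratins Krt7, Krt8, Krt18 and Krt19 held nearly all of the remainder, at 81.0% to 91.7% of keratin FPKM in each library. The vehicle sum was carried by Krt17, whereas Krt5 was the largest member in each treated library, at 30.1% and 30.6% of the sum with tamoxifen plus alpelisib, 49.3% and 45.1% with tamoxifen and 30.8% and 33.8% with estradiol.

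**Figure D3:**
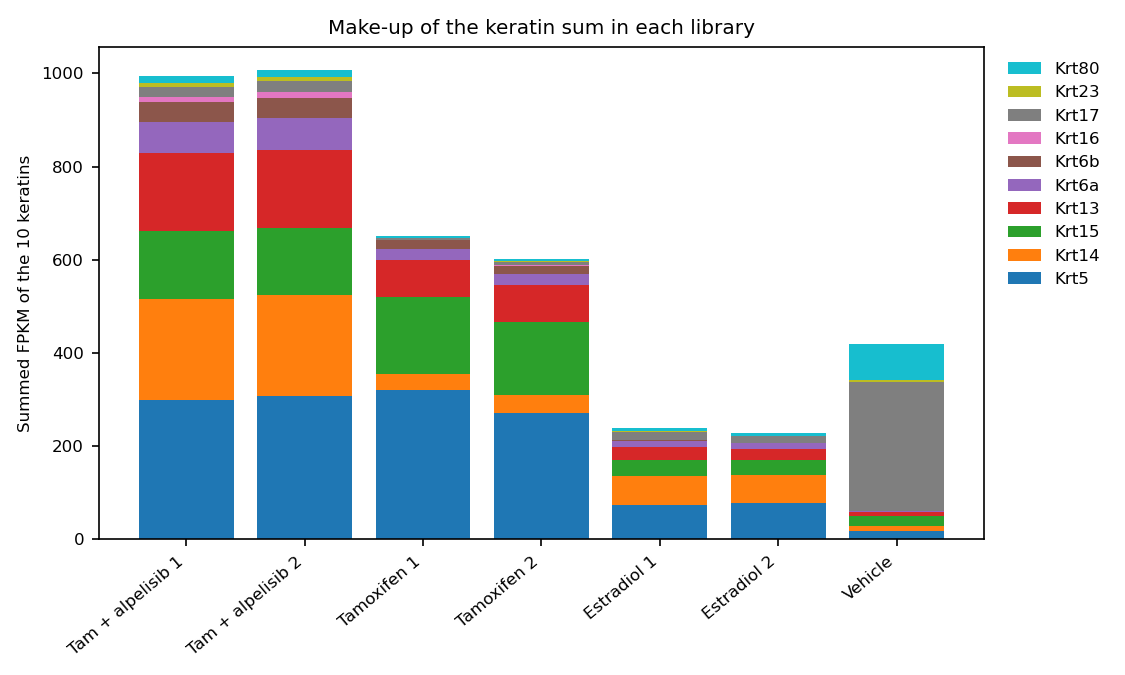
Summed FPKM of the 10 keratins in each library, stacked by gene on an axis that starts at 0. The sum is highest with tamoxifen plus alpelisib (995 and 1007), where Krt5, Krt14, Krt13 and Krt15 are the main parts, and the vehicle bar (419) is mostly Krt17.

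The type I members exceeded the type II members except with tamoxifen alone. The ratio of their sums was 1.35 and 1.32 with tamoxifen plus alpelisib, 0.770 and 0.895 with tamoxifen, 1.51 and 1.36 with estradiol and 3.39 with vehicle. The vehicle ratio rests on Krt17, at 277 FPKM of a type I sum of 324, against a type II sum of 95.5. Since each filament needs both types, partners outside the group are relevant, and the ratio covers only these 10 genes at the RNA level.

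**Figure D4:**
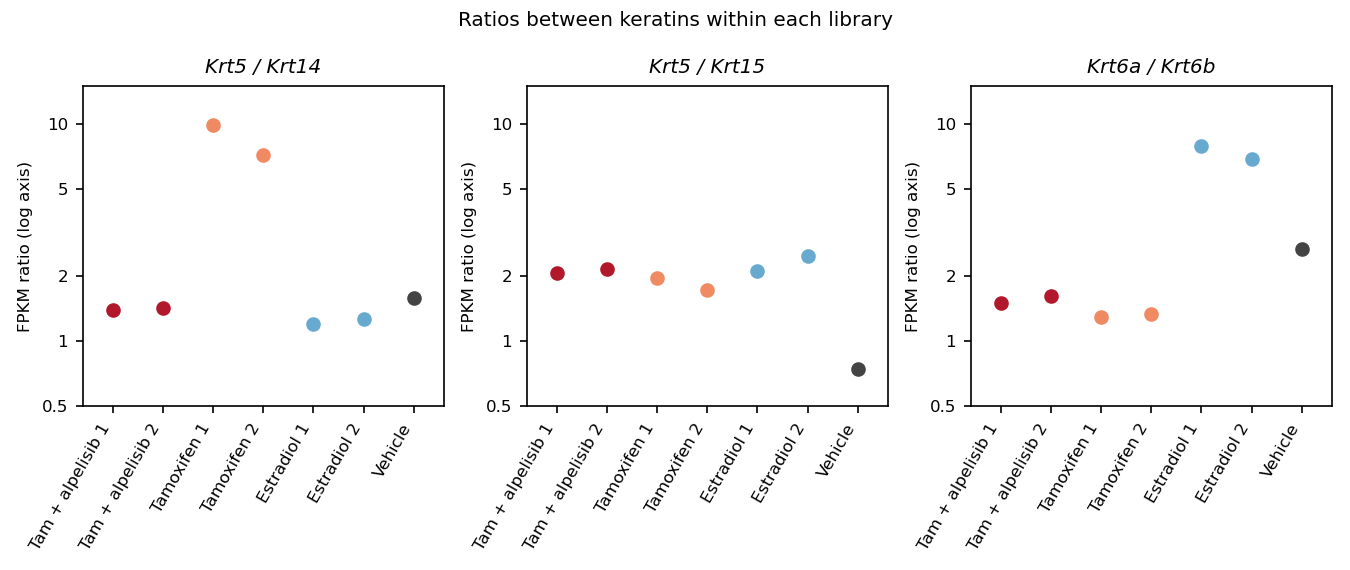
Ratios of FPKM between members in each library, with a logarithmic axis; points are libraries. The ratio of Krt5 to Krt14 is highest with tamoxifen alone (9.89 and 7.24), and that of Krt6a to Krt6b is highest with estradiol (7.89 and 6.88).

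The other 41 keratins are all remaining keratin rows of the table. They were tested in the same fit, though they are what was left after the 10 had been chosen with their values known. Of these, 11 were listed at 0 in every library, 17 stayed under 1 FPKM and 13 were tested. With tamoxifen against vehicle 4 rose, 2 fell and 7 did not pass. Krt7, a simple keratin, rose to 920.5 and 1030.4 FPKM with tamoxifen, against 197 with vehicle (log2 2.30 ± 0.26, limma adjusted p = 0.00119). Krt18, the partner of Krt8, fell to 403 and 463 FPKM, against 1542 with vehicle (-1.83 ± 0.27, adjusted p = 0.00330). The hair and nail keratin Krt84 rose to 19.4 and 21.8 FPKM, against 1.62 (3.04 ± 0.18, adjusted p = 0.000136), and Krt4 fell by 1.20 ± 0.21 (adjusted p = 0.00653). The calls of Krt83 (0.66 ± 0.19, adjusted p = 0.0362) and of Krt1 (0.79 ± 0.25, adjusted p = 0.0471) were lost under several alternatives, and without either library of tamoxifen plus alpelisib, or without tamoxifen 2, 2 of the 13 rose and 2 fell.

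With tamoxifen plus alpelisib against tamoxifen 1 of these 13 passed: Krt84 fell to 7.68 and 7.81 FPKM (-1.30 ± 0.15, limma adjusted p = 0.00669), a call lost without either library of tamoxifen plus alpelisib. Krt18 was at 775 and 831 FPKM with tamoxifen plus alpelisib, above the tamoxifen libraries, by 0.89 ± 0.22 (adjusted p = 0.0512). With estradiol against vehicle 0 rose and 3 fell: Krt4 (-2.67 ± 0.21, adjusted p = 0.000729), Krt18 (-1.72 ± 0.27, adjusted p = 0.00548) and Krt8 (-1.51 ± 0.32, adjusted p = 0.0147). Only Krt4 passed with the 2 compared groups alone in the fit, and the call of Krt8 was also lost without either library of tamoxifen plus alpelisib. Krt8 was at 1551 and 1719.9 FPKM with tamoxifen plus alpelisib, 1076 and 1297 with tamoxifen, 839 and 769 with estradiol and 2295 with vehicle. In the other comparisons 6 rose and 0 fell with tamoxifen against estradiol, 3 rose and 2 fell with tamoxifen plus alpelisib against vehicle, and 9 rose and 0 fell with tamoxifen plus alpelisib against estradiol. Without tamoxifen plus alpelisib 1 and 2 in turn, 4 and 3 rose in the last of these, and 2 rose in the comparison with vehicle, where 0 and 1 fell.

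**Figure D5:**
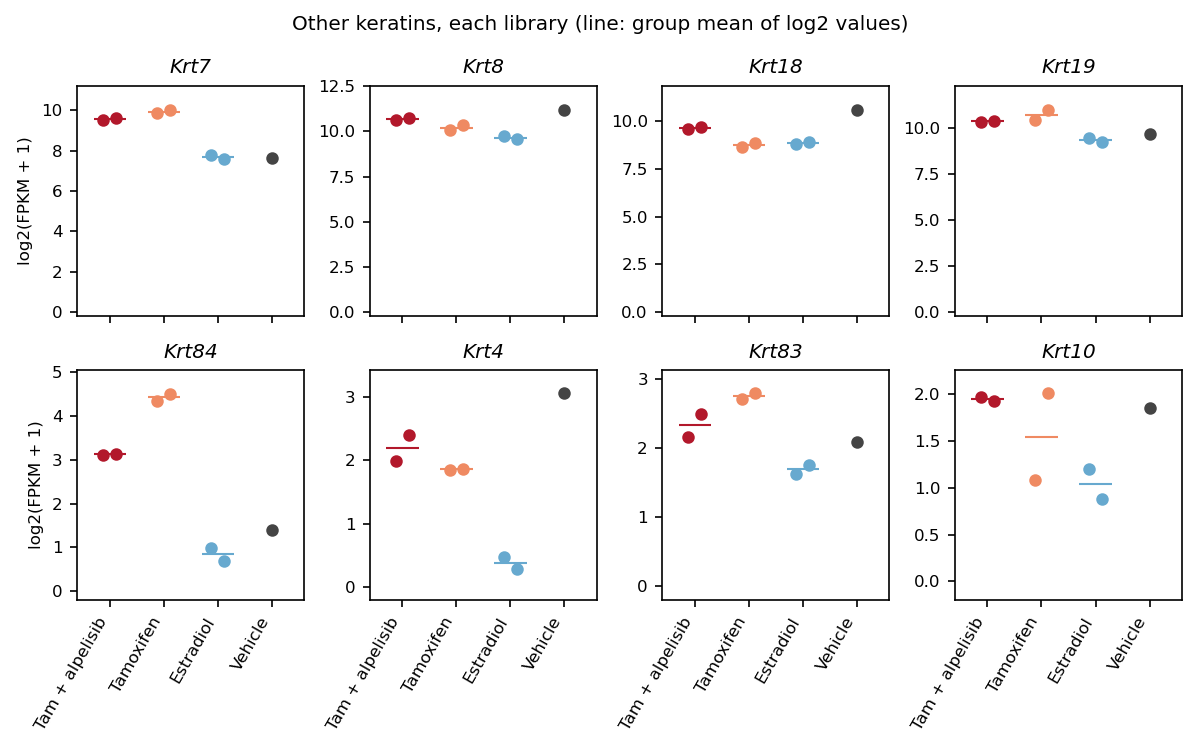
Level of 8 other keratins in each library, as log2(FPKM + 1), with one panel per gene and its own axis; points are libraries and lines are group means of the log2 values. Krt7 and Krt84 are highest with tamoxifen alone, and Krt8, Krt18 and Krt4 are highest in vehicle.

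Keratin filaments are anchored at desmosomes, which join cells to each other, and at hemidesmosomes, which join basal cells to the basement membrane. Of 10 desmosome genes tested, 5 rose and 0 fell with tamoxifen against vehicle, with a median log2 fold change of 0.55 beside -0.12 over all genes. The desmosomal cadherin Dsc2 rose most clearly, to 63.0 and 60.5 FPKM with tamoxifen, against 4.32 with vehicle (3.56 ± 0.16, limma adjusted p = 7.2e-05). It was lower with tamoxifen plus alpelisib than with tamoxifen, at 30.8 and 31.4 FPKM (-0.97 ± 0.13, adjusted p = 0.0102). In that comparison 3 desmosome genes rose and 1 fell, and the epidermal cadherin Dsg3 and the plaque protein Pkp1 rose by 0.94 ± 0.13 and 0.91 ± 0.17 (adjusted p = 0.0101 and 0.0227). With estradiol against vehicle 4 rose and 2 fell, and the tetraspan protein Perp fell by 1.44 ± 0.19 (adjusted p = 0.00312). Without either library of tamoxifen plus alpelisib, 0 desmosome genes passed against tamoxifen, as without tamoxifen 1, and 1 rose and 1 fell with estradiol against vehicle. Without tamoxifen 2, 1 rose and 1 fell with tamoxifen plus alpelisib against tamoxifen, and 3 rose with tamoxifen against vehicle.

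Of 9 hemidesmosome genes 3 rose and 1 fell with tamoxifen against vehicle, 2 rose and 1 fell with tamoxifen plus alpelisib against tamoxifen, and 2 rose and 2 fell with estradiol against vehicle. Collagen XVII (Col17a1), a transmembrane component, was at 9.34 and 10.2 FPKM with tamoxifen plus alpelisib, 5.86 and 5.90 with tamoxifen, 1.97 and 2.23 with estradiol and 0.984 with vehicle. It rose in each of these 3 comparisons (limma adjusted p = 0.0267 with tamoxifen plus alpelisib against tamoxifen, 0.000477 with tamoxifen against vehicle and 0.0221 with estradiol against vehicle). Its call with tamoxifen plus alpelisib against tamoxifen was lost without any 1 of those 4 libraries, and that with estradiol without either library of tamoxifen plus alpelisib. Dystonin (Dst), whose epithelial form ties keratin to the hemidesmosome, instead fell by 2.93 ± 0.17 with tamoxifen against vehicle (adjusted p = 0.000129), and rose by 1.06 ± 0.14 with tamoxifen plus alpelisib against tamoxifen (adjusted p = 0.00934). The table gives 1 value for all forms of the gene. Without either library of tamoxifen plus alpelisib, 0 genes of the list passed against tamoxifen, as without tamoxifen 1, and 0 rose and 1 fell with estradiol against vehicle. Without tamoxifen 2, 1 rose and 0 fell with tamoxifen plus alpelisib against tamoxifen, and 2 rose and 1 fell with tamoxifen against vehicle. Without estradiol 2, 2 rose and 4 fell with estradiol against vehicle.

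Genes of the cornified envelope, the cross-linked shell of terminally differentiated squamous cells, were mostly low, but Sprr1a was not. It was at 222 and 253 FPKM with tamoxifen plus alpelisib and 33.6 and 94.5 with tamoxifen. With estradiol it was at 40.7 and 18.9, and with vehicle at 312. Sprr1a fell with tamoxifen against vehicle (-2.44 ± 0.65, limma adjusted p = 0.0274) and with estradiol against vehicle (-3.44 ± 0.65, adjusted p = 0.0102). Of 13 genes tested, 2 rose and 3 fell with tamoxifen against vehicle, 5 rose and 0 fell with tamoxifen plus alpelisib against tamoxifen, and 2 rose and 2 fell with estradiol against vehicle. Cornifelin (Cnfn) was at 2.22 and 2.57 FPKM with tamoxifen plus alpelisib and listed at 0 in the other 5 libraries (limma adjusted p = 0.00300 against tamoxifen). The cross-linking enzyme Tgm1 rose to 2.89 and 2.85 FPKM with tamoxifen plus alpelisib, against 0.401 and 0.416 with tamoxifen (1.46 ± 0.13, adjusted p = 0.00423). The protease inhibitor Spink5 rose with tamoxifen against vehicle (2.97 ± 0.28, adjusted p = 0.000648), while loricrin, the main shell protein of skin, fell (-3.44 ± 0.31, adjusted p = 0.000536). Without either library of tamoxifen plus alpelisib, 0 of the 13 passed against tamoxifen, 0 rose and 2 fell with estradiol against vehicle, and 1 rose and 2 fell with tamoxifen against vehicle. Without tamoxifen 2, 1 rose and 3 fell with tamoxifen against vehicle, and without tamoxifen 1, 2 rose and 2 fell.

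Among 15 transcription factors of squamous epithelium, 5 rose and 2 fell with tamoxifen against vehicle, 4 rose and 0 fell with tamoxifen plus alpelisib against tamoxifen, and 3 rose and 2 fell with estradiol against vehicle. Klf5, a factor of proliferating epithelia, fell to 18.6 and 20.0 FPKM with tamoxifen, against 70.7 with vehicle (-1.83 ± 0.16, limma adjusted p = 0.000507). It rose to 55.7 and 54.9 with tamoxifen plus alpelisib (1.48 ± 0.13 against tamoxifen, adjusted p = 0.00418). Prdm1, a factor of terminal differentiation, rose in both comparisons (0.89 ± 0.17, adjusted p = 0.00799, with tamoxifen against vehicle and 1.33 ± 0.14, adjusted p = 0.00537, with tamoxifen plus alpelisib against tamoxifen). Trp63 rose by 0.60 ± 0.13 with tamoxifen plus alpelisib against tamoxifen (adjusted p = 0.0381), a call lost under 6 alternatives, with no filter on low values, with the replicate block and without any 1 of the 4 libraries compared. Of the 15 factors, 0 passed against tamoxifen without either library of tamoxifen plus alpelisib and 2 rose without either tamoxifen library. In estradiol against vehicle 1 rose and 1 fell without either library of tamoxifen plus alpelisib. Without tamoxifen 2, 3 rose and 3 fell with tamoxifen against vehicle.

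The list of genes that accompany Krt6, Krt16 and Krt17 in wounded epidermis held 16 tested genes. With tamoxifen against vehicle 5 rose and 4 fell, with tamoxifen plus alpelisib against tamoxifen 7 rose and 0 fell, and with estradiol against vehicle 8 rose and 4 fell. The alarm cytokine Il1a was at 398 and 429 FPKM with tamoxifen plus alpelisib, 117 and 141 with tamoxifen, 17.4 and 14.4 with estradiol and 3.17 with vehicle, the order of groups seen for Krt6a and Krt6b. It rose by 4.96 ± 0.21 with tamoxifen against vehicle (limma adjusted p = 5.82e-05) and by 1.68 ± 0.17 with tamoxifen plus alpelisib against tamoxifen (adjusted p = 0.00529). Il36a (named Il1f6 in the table), another cytokine of that family, rose by 5.57 ± 0.21 with tamoxifen against vehicle (adjusted p = 4.49e-05).

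Other genes of the list were, like Krt17, highest in vehicle. The AP-1 subunit Fosl1 was at 63.9 and 67.5 FPKM with tamoxifen plus alpelisib, 7.08 and 14.95 with tamoxifen, 5.13 and 2.85 with estradiol and 83.5 with vehicle, and the urokinase receptor Plaur at 120.1 and 136, 14.9 and 30.3, 10.96 and 5.19, and 232 in the same order. Both rose with tamoxifen plus alpelisib against tamoxifen (Fosl1 by 2.55 ± 0.36, limma adjusted p = 0.0105, and Plaur by 2.53 ± 0.41, adjusted p = 0.0162). The calprotectin subunit S100a8 was at 6.98 and 7.37 FPKM with tamoxifen plus alpelisib, 2.50 and 3.58 with estradiol and listed at 0 with tamoxifen and with vehicle (adjusted p = 0.00156 for tamoxifen plus alpelisib against tamoxifen). Neutrophils also make S100a8, and of 8 leukocyte markers tested in that comparison 2 rose and 1 fell. The 2 were S100a8 and its partner S100a9, which belong to both lists. Itgam was lower with tamoxifen plus alpelisib (31.7 and 33.0 FPKM) than with tamoxifen (51.5 and 56.0). The neutrophil marker Ly6g was at 1.53 and 1.70 with tamoxifen plus alpelisib and 2.28 and 2.10 with tamoxifen. The part of neutrophils in these values was not tested. Of the 16 genes, S100a8 alone rose against tamoxifen without either library of tamoxifen plus alpelisib, and 3 rose without tamoxifen 1.

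Intermediate filament genes other than keratins were mostly lower with tamoxifen than with vehicle. Of 7 tested, 0 rose and 6 fell with tamoxifen against vehicle, 1 rose and 1 fell with tamoxifen plus alpelisib against tamoxifen, and 2 rose and 3 fell with estradiol against vehicle. Vimentin (Vim), the filament of mesenchymal cells, was at 17.0 and 18.3 FPKM with tamoxifen plus alpelisib, 6.09 and 8.11 with tamoxifen, 38.5 and 36.3 with estradiol and 51.7 with vehicle (tamoxifen against vehicle -2.71 ± 0.20, limma adjusted p = 0.000265). The stromal markers, whose summed levels are given above, fell in 11 of 11 cases in that comparison. The nuclear lamin gene Lmna fell by 2.39 ± 0.18 (adjusted p = 0.000288). Without tamoxifen 1, 4 of the 7 fell, and 0 passed for tamoxifen plus alpelisib against tamoxifen without either library of the combination.

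The genes nearest in profile were sought for each keratin among 8389 genes that reached 5 FPKM, by the root mean square difference of log2(FPKM + 1) after each gene was centred on its own mean, over 7 libraries in 4 groups. Krt15 had the closest match, the cytochrome P450 gene Cyp2j6 at 0.0952 log2 units, followed by the tubulin Tuba8 at 0.106. Krt5 was nearest to the spectrin-binding adducin Add2 (0.177) and the aminopeptidase Lvrn (0.181). Krt13 was nearest to Sdcbp2 (0.189) and the calmodulin-like Calml3 (0.228), and Krt23 to the syntaxin Stx11 (0.176). Krt80 was nearest to the circadian repressors Cry2 (0.180) and Per2 (0.279).

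The remaining keratins had looser neighbours. Krt16 was nearest to the chemokines Cxcl3 (0.272) and Cxcl2 (0.286), Krt6b to the transporter Abcb5 (0.265) and Krt17 to the growth factor binding protein Igfbp3 (0.354). Krt6a was nearest to Prap1 (0.439), and Krt14 to the secreted glycoprotein Olfm4 (0.444). Within the group the closest pair was Krt5 with Krt13 (0.447), before Krt6a with Krt13 (0.463), Krt5 with Krt15 (0.523) and Krt17 with Krt80 (0.539). Krt13 was the only one of the 10 found among the 5 nearest genes of another, at rank 4 for Krt6a.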

How the data were processed

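The deposited table holds FPKM for 24353 genes in 7 libraries, and the authors used CASAVA, Bowtie and Cufflinks, per the submitters' processing notes, without versions. The only build named there is hg19, a human one, while the symbols are those of mouse genes in capitals; they were matched regardless of case to mouse annotation (23697 matched), and no gene position was read from the files. Counts, and how reads were shared between near-identical genes, are unstated in the sources used here.

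The 10 keratins, the gene lists and the tests were chosen with earlier results of these data known. limma-trend (limma 3.58.1, R 4.3.3) was fitted to log2(FPKM + 1) for 12314 genes with at least 1 FPKM in at least 1 library, with 4 group means over all 7 libraries, 3 residual degrees of freedom and a prior of 3.27. The vehicle library was assumed to vary like the others. Within each of 6 comparisons the Benjamini-Hochberg adjustment covered all genes tested, with a threshold of 0.05; no p is given for the 10 keratins. Named besides them are other keratins reaching 1 FPKM, up to 4 genes of lowest p per list and comparison, and, for each keratin, up to 5 genes of nearest profile. Epcam, Trp63, Ly6g and the group levels of Krt4 were added after their values were seen. Il36a, Il36b and Il36g were found under older symbols. Flg, Il36rn, Hbb-b2 and Muc16 were not analysed here. Some marker genes of the other cell types are not reported here. No block was used in the main fit, since the labels do not say that mouse numbers pair the groups. The procedure was also run on simulated data. These gave each gene the same spread in all 7 libraries, so they could not check the assumption made for the vehicle library. Alternatives were other scalings, filters, a pseudocount of 0.1, robust estimation, a block, fewer groups and each replicate left out. Summaries used Python 3.11.15 with pandas 2.3.3, numpy 2.4.6 and matplotlib 3.10.9.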

Additional observations from a re-analysis of the deposited data

How the results depend on the processing

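Over 14 alternatives the 10 keratins gave 837 fold changes, of which 733 stayed within 1 residual SD of the value reported, 104 moved further and 0 of those called changed sign. Of the 104, 58 came from the 2 other scalings, 24 from leaving out a replicate and 22 from a pseudocount of 0.1, which moved fold changes by up to 2.30 on the log2 scale. Krt5 (tamoxifen plus alpelisib against tamoxifen) and Krt16 (estradiol against vehicle), neither of them called, changed sign under some alternatives.

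For tamoxifen plus alpelisib against tamoxifen, 1445 genes were called, 870 with no filter on low values and 14 to 1809 with a replicate left out, and the 1 other keratin called became 3 with median-of-ratios scaling, with quantile normalization or with only the compared groups, 2 with a filter of 2 libraries or robust estimation, and 0 to 3 with a replicate left out. For estradiol against vehicle, 4366 genes became 1597 with only the compared groups and 2808 to 5063 with a replicate left out, and the 3 other keratins called became 5 with quantile normalization and 1 with only the compared groups. For tamoxifen plus alpelisib against vehicle, 4299 genes became 6985 with only the compared groups and 1900 to 5096 with a replicate left out, and the 5 other keratins became 2 with no filter, 8 with only the compared groups and 2 to 6 with a replicate left out. Against estradiol, 6548 genes became 3871 to 6614 and the 9 other keratins 3 to 9 with a replicate left out. Among the fits with a replicate left out, the lowest gene counts in the comparisons of tamoxifen plus alpelisib came without 1 of its own 2 libraries, and those of estradiol against vehicle without tamoxifen plus alpelisib 1. The causes were not tested.

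Same-numbered mice deviated from their group means with correlations of 0.273 (tamoxifen plus alpelisib and tamoxifen), -0.182 (tamoxifen plus alpelisib and estradiol) and -0.403 (tamoxifen and estradiol). With 2 libraries per group, and values not rescaled between libraries, these correlations cannot tell pairing from differences in library scale. With the replicate block, 589 genes were called for tamoxifen plus alpelisib against tamoxifen and 3996 for tamoxifen against vehicle. For tamoxifen plus alpelisib against estradiol, 5 other keratins were called with the block and 9 without it. Levels under 1 FPKM rest on few fragments, 5.45 to 35.2 where the depth could be read.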
